A study of Rattus norvegicus with 4 samples.

Results

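The mitochondrial respiratory chain was followed in colon tissue of rats through 54 genes. They were chosen by name: RefSeq gene symbols beginning with Nduf, Uqcr or Atp5, the Sdh genes, Cycs, and Cox followed by a digit, with 1 row per gene and, where a gene had several rows, the row with the highest mean. The choice used no difference between groups, but a row had to hold a value on all 4 arrays. The 54 genes stand among 6968 genes that could be named on the arrays and among 18350 measured rows in all. The protein-coding genes of the RefSeq gene table that fit these names number 129. Of them, 73 had no row that could be found by name, and 2 (Cox8b and Cox8c) had a row that was blank on every array. Sdhb, Cyc1, Cox6b1, Cox7a1, Cox7c and Ndufa4 are among those without a row by name. The subunits encoded in mitochondrial DNA were not analysed here.

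The study asked which genes differ in the inflamed colon of rats with inflammatory bowel disease (IBD) after mesenchymal stem cell transplantation (MSCT). In its model, colitis was raised in male Sprague Dawley rats with 2,4,6-trinitrobenzene sulfonic acid (TNBS), and stem cells carrying green fluorescent protein were given through the tail vein. Both groups were male and had 2 arrays each: the MSCT group came from IBD rats that received the cells, and the control group received none. The paper sets the MSCT group against an IBD control group, whereas the labels call the control animals normal rats, and the paper gives the chips different days in different passages, so neither the disease state of the controls nor the day is settled here. Nothing in the labels says that the replicates of a group were separate animals, so the p-values measure the spread between these samples, which may be technical. Each array gave 1 intensity, the brightness of the hybridised dye, per RefSeq transcript, used here on the log2 scale, where a difference of 1 is 2-fold. Taken over all rows, the controls had median intensities of 883 and 893 and the MSCT arrays of 848 and 882. With so few arrays, every value is imprecise. Rows differ in their probes, so brightness does not compare the amounts of different transcripts. In whole tissue, fewer cells of a type and less RNA per cell cannot be told apart.

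The respiratory chain sits in the inner mitochondrial membrane. Complex I takes electrons from NADH and complex II from succinate, both pass them to ubiquinone, complex III passes them on to cytochrome c, and complex IV hands them to oxygen. Complexes I, III and IV pump protons, and complex V, the ATP synthase, uses the returning protons to make ATP. Cells lining the colon oxidise butyrate from the gut bacteria by this route, and reduced mitochondrial respiration is often described in inflamed colon. Most subunits are nuclear genes, and the transcription factors NRF1, GABP (also called NRF2), ERR and YY1, with the coactivator PGC-1alpha encoded by Ppargc1a, are known to act on many of their promoters.

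The promoters of the chain carried the letters of these factors' motifs more often than other promoters did. RefSeq promoter windows of the rat build GRCr8, 250 bases before to 50 bases after the gene start, were found for 48 of the 54 genes, and both strands were searched. Atp5pd, Cox4i2, Cox6a1, Cox6c and Ndufa10l1 are among those that had no window in the table used. The NRF1 motif GCGCANGCG was in 15 of the 48 windows (31.3%), against 11.5% of 5664 windows of genes named on the arrays and 5.80% of all 33469 windows. The GABP motif CCGGAAG was also in 15 windows (31.3%), against 15.6% of the windows of named genes and 8.75% of all windows. The ERR motif AAGGTCA was in 9 windows (18.8%), against 3.34% and 4.61%, and the YY1 motif AAGATGGC was in 8 (16.7%), against 4.59% and 3.17%. At least 1 of the 4 motifs was in 32 windows (66.7%), against 29.7% and 19.8%. The NRF1 motif overlaps its own reverse complement, so it was often found on both strands at the same place, and the windows were counted, not the matches. These matches describe letters in a window and were not tested as binding sites.

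**Figure D1:**
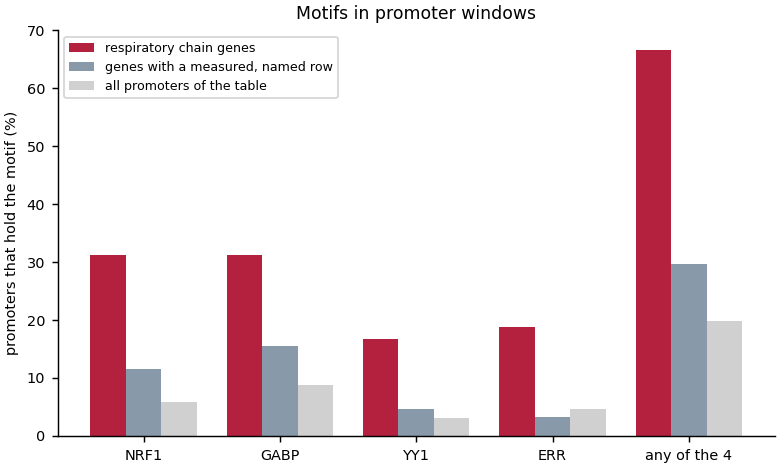
Share of promoter windows (percent, vertical axis) that hold each motif on either strand, for the 48 respiratory chain genes with a window (red), the 5664 windows of genes named on the arrays (blue grey) and all 33469 windows (light grey). The red bar is the tallest for each motif, from 16.7% for YY1 to 31.3% for NRF1 and GABP.

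Of the promoters, 4 are printed because they belong to genes the results below turn on and show 3 of the motifs in place. Each line gives the 250 bases before the gene start in GRCr8, 5′ to 3′ on the strand of the gene, with the motif letters on either strand in capitals. Cycs, which encodes cytochrome c, lies on the minus strand (chr4:80984768-80985017) and has NRF1 letters. Ndufv3, a small accessory subunit of complex I, lies on the plus strand (chr20:9613536-9613785) and has NRF1 letters near the gene start. Uqcrc2, core protein 2 of complex III, lies on the plus strand (chr1:184598990-184599239) and has GABP letters at 2 places. Uqcrq, a small membrane subunit of complex III, lies on the minus strand (chr10:38089979-38090228) and has ERR letters followed by GABP letters.
Cycs: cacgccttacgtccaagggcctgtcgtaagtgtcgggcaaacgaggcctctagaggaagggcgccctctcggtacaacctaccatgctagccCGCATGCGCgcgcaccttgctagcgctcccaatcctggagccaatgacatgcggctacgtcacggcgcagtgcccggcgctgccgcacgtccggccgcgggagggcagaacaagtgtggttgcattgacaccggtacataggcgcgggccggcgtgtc
Ndufv3: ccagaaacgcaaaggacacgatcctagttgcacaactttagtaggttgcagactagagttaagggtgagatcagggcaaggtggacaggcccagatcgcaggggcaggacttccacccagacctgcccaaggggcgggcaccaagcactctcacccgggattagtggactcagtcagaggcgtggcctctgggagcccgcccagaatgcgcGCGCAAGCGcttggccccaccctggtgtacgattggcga
Uqcrc2: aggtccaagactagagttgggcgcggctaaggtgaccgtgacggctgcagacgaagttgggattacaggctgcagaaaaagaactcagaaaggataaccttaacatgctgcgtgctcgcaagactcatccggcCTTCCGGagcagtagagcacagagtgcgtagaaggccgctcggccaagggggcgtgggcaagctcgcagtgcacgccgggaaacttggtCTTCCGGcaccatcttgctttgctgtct
Uqcrq: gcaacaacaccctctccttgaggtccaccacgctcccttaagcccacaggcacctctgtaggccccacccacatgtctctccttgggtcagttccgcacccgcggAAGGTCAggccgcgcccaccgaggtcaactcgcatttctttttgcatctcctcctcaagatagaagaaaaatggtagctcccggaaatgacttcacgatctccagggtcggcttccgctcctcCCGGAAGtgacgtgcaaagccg

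Across the whole chain, the differences between groups were small. For the 54 genes, the median log2 intensity was 12.53 and 12.72 in the controls and 12.65 and 12.70 in the MSCT group. Both MSCT medians thus lay between those of the controls. Most of the genes had a strong signal, and by mean intensity their median stood at percentile 91.8 of all rows. The difference, MSCT minus control, had a median over the genes of -0.05 and ran from -0.34 to 0.74, with 21 genes above 0 and 33 below. Over all measured rows the median difference was -0.02 and the range was -4.49 to 4.41. The median difference was 0.05 over all named genes and 0.02 over the brightest 25% of rows.

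By limma, which fits a linear model to each row and borrows variance from all of them, 0 of the 54 genes passed an unadjusted p of 0.05 in either direction. In the background of all rows, 4.80% passed upward and 7.17% downward, and it was 7.72% in either direction among the brightest 25% of rows. The smallest unadjusted p by limma in the chain was 0.0798 and the smallest adjusted p was 0.471, both for Cox6b2. No row of the whole array, 0%, passed an adjusted p of 0.05 by limma, although 880 rows passed the unadjusted threshold upward and 1316 downward. With a variance that depends on intensity, limma passed 387 rows after adjustment, 0 of them in the chain. Wherever this setting is named, the robust option of limma, which limits the pull of rows with unusual variance, was on as well. The screen that the study names, p under 0.05 together with a fold change over 2, was passed by 0 of the 54 genes and by 4.63% of all rows. The paper names no test for the chips beyond that screen. A plain equal-variance test of each row on its own, which is what the one-way analysis of variance of its statistics section becomes with only a pair of groups, passed 4 of the 54 genes without adjustment, Ndufa10l1 and Uqcrc1 upward and Cox6c and Atp5f1e downward, against 9.66% of all rows. With 2 arrays in each group, the smallest two-sided p that an exact permutation test allows is 0.333. For no gene of the chain was a difference shown, and a p that misses the threshold does not show that the groups were alike.

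The intervals say how large a difference these arrays could still hold. For 49 of the 54 genes (90.7%), the 95% interval of the difference by limma lay inside 2-fold in either direction. The same was so for 51.0% of all rows and for 81.8% of the brightest 25% of rows, where 42 of 43 genes of the chain (97.7%) had such an interval. The genes whose interval reached past 2-fold were Cox4i2, Cox6b2, Ndufaf4, Ndufaf7 and Uqcrc2, each on the higher side. These intervals rest on the shared variance, and by the plain equal-variance test they stayed inside 2-fold for 37 genes (68.5%). They also rest on the MSCT arrays, with 16 genes (29.6%) inside 2-fold without MSCT replicate 1 and 22 genes (40.7%) without MSCT replicate 2.

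**Figure D2:**
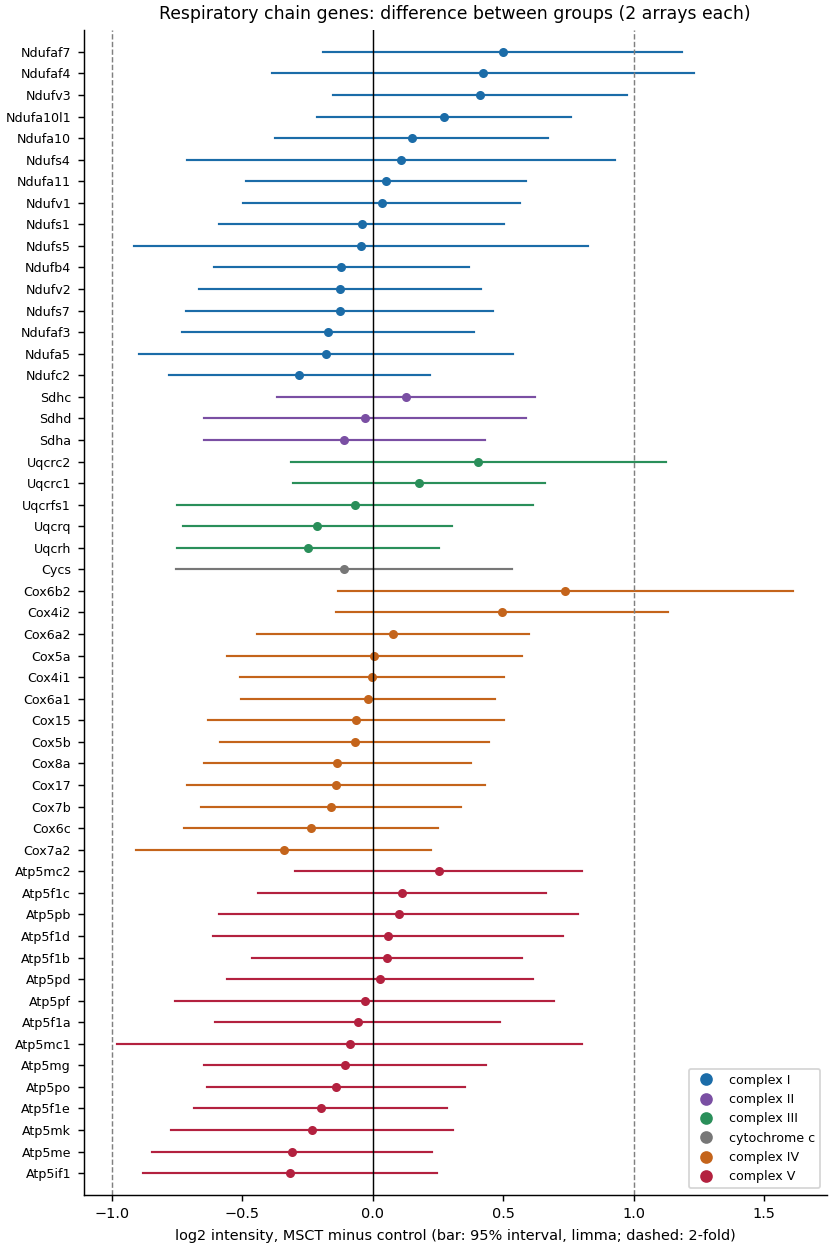
Difference in log2 intensity between groups, MSCT minus control (horizontal axis), for 53 of the 54 genes, with points coloured by complex, bars for the 95% interval by limma and dashed lines at 2-fold. Every bar crosses 0, and the points run from -0.34 for Cox7a2 to 0.74 for Cox6b2.

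**Figure D3:**
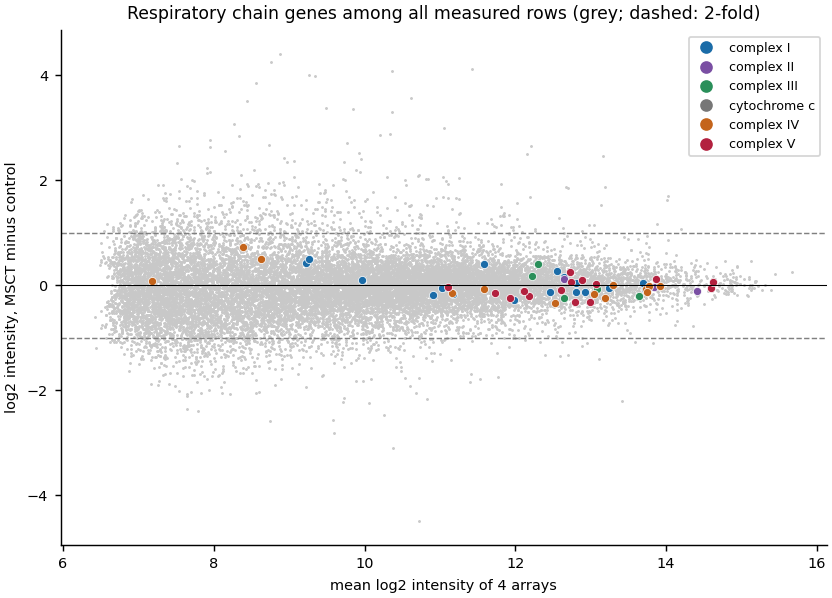
Difference in log2 intensity, MSCT minus control (vertical axis), against the mean log2 intensity of the 4 arrays (horizontal axis) for the 54 genes (coloured by complex) over all 18350 measured rows (light grey), with dashed lines at 2-fold. The respiratory chain genes lie mostly among the bright rows, and all of them lie inside the dashed lines.

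The gap between the control arrays was larger than the difference between group means in most of the chain. A gap between 2 single arrays varies more than a difference between means of 2 arrays. It can thus be the larger in most genes without any group difference, so the share over all rows is given beside it. The median gap between the controls, without sign, was 0.22, that between the MSCT arrays was 0.13 and that between the group means was 0.12. The control gap exceeded the group difference in 34 of 54 genes (63.0%), against 53.6% of all rows. Control replicate 2 was the brighter control in 37 of 54 genes (68.5%), against 51.5% of all rows. A control gap over 0.5 was found in 10 genes (18.5%), against 30.3% of all rows and 10.7% of the brightest 25%, and in 8 of these 10 genes replicate 2 was the brighter. The widest gap was that of Atp5mc1, an isoform of the ring that turns in the membrane part of ATP synthase, at 12.27 and 13.04. The MSCT arrays read 12.41 and 12.73 for Atp5mc1, between the controls. Ndufs5, an accessory subunit of complex I, read 10.69 and 11.42 in the controls and 10.84 and 11.18 in the MSCT group. Only Cox6b2 had a group difference over 0.5 (1.85% of the chain, against 26.7% of all rows and 10.6% of the brightest 25%).

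**Figure D4:**
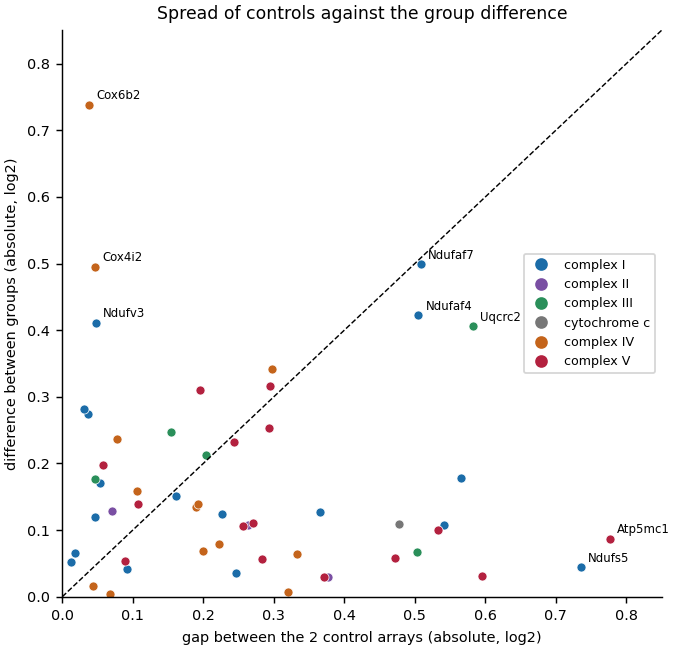
Difference between the group means (vertical axis) against the gap between both control arrays (horizontal axis), each without sign in log2 intensity, for the 54 genes coloured by complex, with a dashed line where they are equal. The control gap is the larger for the 34 genes below the line, with Atp5mc1 and Ndufs5 farthest right. Cox6b2, Cox4i2 and Ndufv3 stand at upper left. A gap between single arrays varies more than a difference between means, so the line does not mark equal spread.

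The values of the groups did not overlap in 9 genes that were higher in the MSCT group and in 14 that were lower. Over all rows, groups did not overlap in 21.3% upward and 24.5% downward. Together they were 42.6% of the chain, against 45.8% of all rows and 51.7% of the brightest 25%. The share in the chain was thus no higher than the background. Of the 15 genes taken as core (5 of complex I, 3 of complex II, Uqcrfs1, Cycs and 5 of the head of complex V), 12 had overlapping groups.

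**Figure D5:**
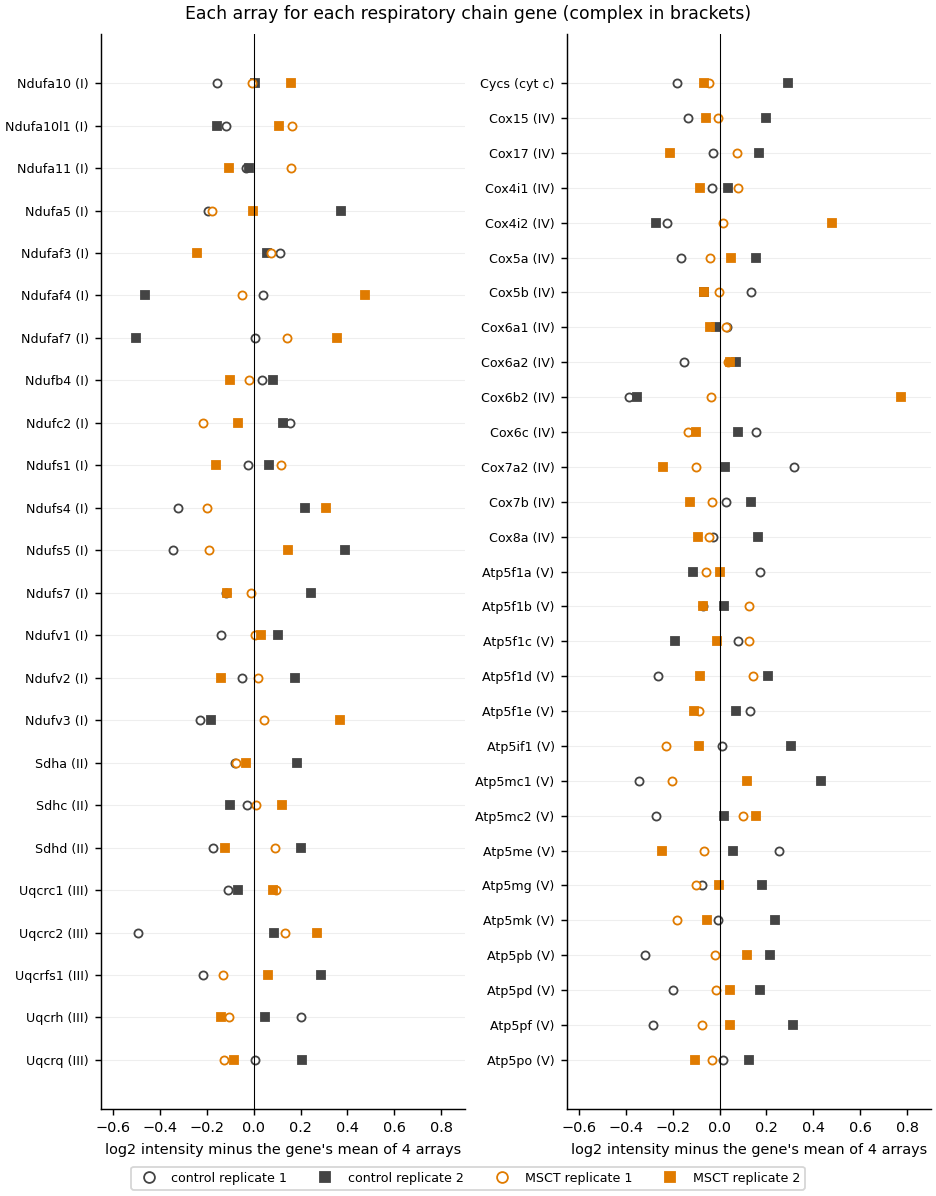
Log2 intensity of each array minus the mean of the gene over the 4 arrays (horizontal axis), for 53 of the 54 genes with the complex of each in brackets, black marks for controls, orange marks for MSCT, open circles for replicate 1 and filled squares for replicate 2. Filled black squares lie to the right of the open black circles in 37 of the 53 genes plotted, and orange squares stand far right for Cox6b2 and Cox4i2.

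Complex I, the largest enzyme of the chain, was measured through 17 genes, and none passed the test. Their median difference was -0.04, with a range of -0.28 to 0.50. The 5 core subunits had differences of -0.13 to 0.03, and each had its interval inside 2-fold. Ndufv1, which binds NADH, read 13.55 and 13.80 in the controls and 13.69 and 13.72 in the MSCT group. Ndufv2, the iron-sulfur subunit beside it, read 12.41 and 12.64 against 12.48 and 12.32. Ndufs1, an iron-sulfur subunit of the same arm, and Ndufs7, the last iron-sulfur subunit before ubiquinone, had differences of -0.04 and -0.13. The groups of these 4 subunits overlapped.

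Among the 9 accessory subunits of complex I, the difference ran from -0.28 to 0.41, with a median of 0.05. Ndufc2, which had the lowest difference of complex I, read 12.14 and 12.11 in the controls and 11.77 and 11.91 in the MSCT group. Both MSCT arrays were lower, by a mean of -0.28 (SE 0.19, adjusted p 0.593 by limma). Ndufv3 read 11.36 and 11.41 in the controls and 11.63 and 11.95 in the MSCT group. Both MSCT arrays were higher, by a mean of 0.41 (SE 0.21, adjusted p 0.516 by limma), and Ndufv3 was the only gene of the chain past an unadjusted p of 0.05 when the variance was allowed to depend on intensity, a setting in which 14.7% of all rows passed. Ndufa10 and the near-identical Ndufa10l1 may share hybridisation, so their values are uncertain. Ndufa10l1 read 12.44 and 12.40 against 12.72 and 12.67, a difference of 0.27, and Ndufa10 read 12.49 and 12.65 against 12.64 and 12.81. Ndufb4 was lower on both MSCT arrays, with a difference of -0.12. The other accessory subunits had overlapping groups, with differences of 0.05 for Ndufa11, -0.18 for Ndufa5, 0.11 for Ndufs4 and -0.04 for Ndufs5.

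Assembly factors of complex I are not part of the finished enzyme. Ndufaf7, a methyltransferase that acts during assembly and had the highest difference of complex I, read 9.27 and 8.76 in the controls and 9.41 and 9.62 in the MSCT group. Its difference was 0.50 (SE 0.26, adjusted p 0.517 by limma), beside a gap of 0.51 between the controls. Ndufaf4 read 9.27 and 8.77 against 9.18 and 9.70, so that its groups overlapped. In Ndufaf4 and Ndufaf7 it was control replicate 2 that read low, the opposite of most of the chain. Ndufaf3, which had 2 measured rows and is given by the brighter, had a difference of -0.17 with overlapping groups.

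Complex II, the succinate dehydrogenase that also works in the citric acid cycle, was measured through 3 of its 4 genes chosen by name, since Sdhb had no row by name. Sdha, its flavoprotein, read 14.34 and 14.60 in the controls and 14.34 and 14.38 in the MSCT group. Sdhc, a membrane anchor, read 12.62 and 12.55 against 12.66 and 12.77, and Sdhd, the other anchor, read 13.66 and 14.04 against 13.93 and 13.72. The differences were -0.11, 0.13 and -0.03, with SE of 0.20, 0.19 and 0.23. Only the groups of Sdhc did not overlap, and its lower MSCT array lay barely above the upper control.

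Complex III was measured through 5 genes, with a median difference of -0.07. The core proteins, which hold the matrix side of the complex together and take no part in electron transfer, were higher on both MSCT arrays. Uqcrc2, whose promoter with its GABP letters is printed above, read 11.81 and 12.39 in the controls and 12.44 and 12.57 in the MSCT group. Its difference of 0.41 had an SE of 0.27 and an adjusted p of 0.592 by limma. Control replicate 1 lay 0.58 below the other control, and without it the difference was 0.11. Uqcrc1 read 12.11 and 12.16 against 12.32 and 12.30, a difference of 0.18 (SE 0.18, adjusted p 0.721 by limma) with small gaps in both groups.

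The small subunits of complex III lay on the other side. Uqcrh, the hinge protein beside cytochrome c1, read 12.84 and 12.69 in the controls and 12.54 and 12.50 in the MSCT group, a difference of -0.25 (SE 0.19, adjusted p 0.630 by limma). Uqcrq, with the highest mean of complex III, read 13.65 and 13.85 against 13.52 and 13.56, a difference of -0.21 (SE 0.19, adjusted p 0.691 by limma). Uqcrfs1, the Rieske iron-sulfur protein and the only catalytic subunit of complex III measured, read 12.87 and 13.37 against 12.96 and 13.15. Both MSCT values of Uqcrfs1 lay between the controls. Cytochrome c itself (Cycs, printed above with its NRF1 letters) read 11.91 and 12.39 against 12.05 and 12.03, again between the controls, with a difference of -0.11 (SE 0.24).

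Complex IV was measured through 11 nuclear subunits and 2 assembly factors, with a median difference of -0.06. Several of its subunits exist as isoforms that take the same place in the enzyme, and 4 of the commonly used subunits are given first. Cox4i1, the common form of subunit 4 and the brightest of complex IV, read 13.89 and 13.96 in the controls and 14.00 and 13.84 in the MSCT group. Cox5a, which binds thyroid hormone metabolites, read 13.14 and 13.46 against 13.26 and 13.35. Cox5b, which binds zinc, read 13.87 and 13.67 against 13.73 and 13.66. Cox6a1, the common form of subunit 6a, read 13.81 and 13.77 against 13.81 and 13.74. All 4 had overlapping groups, and the differences ran from -0.07 for Cox5b to 0.01 for Cox5a.

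The tissue-restricted isoforms of complex IV had weaker signals on their rows. Cox4i2, a form known from lung and from cells low in oxygen, read 8.40 and 8.36 in the controls and 8.64 and 9.11 in the MSCT group. Its difference was 0.50 (SE 0.24, adjusted p 0.499 by limma), with a gap of 0.47 between the MSCT arrays. Cox6b2, a form known from testis, read 7.99 and 8.03 against 8.34 and 9.16. Both MSCT arrays were higher, but MSCT replicate 2 lay 0.81 above replicate 1, and the difference of 0.74 (SE 0.33) was the largest of the chain. Cox6a2, the form of heart and skeletal muscle, read 7.03 and 7.25 against 7.22 and 7.23, at percentile 8.53 of all rows by its mean. Its groups overlapped, with a difference of 0.08. The 5 genes of the chain in the lower 50% of rows by mean intensity were Cox4i2, Cox6a2, Cox6b2, Ndufaf4 and Ndufaf7. All had differences above 0, with a median of 0.50, while the median over the other 49 was -0.07. Over all rows, 8809 of 18350 were above 0, and in the upper 50% of rows 4706 of 9175. These 5 rows were weak and imprecise. Their median gap between the MSCT arrays was 0.47, and only 1 of the 5 had its interval inside 2-fold.

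The remaining 4 subunits of complex IV, all small proteins around the catalytic core, were lower on both MSCT arrays. In complex IV as a whole, groups did not overlap in 4 of 13 genes downward and 2 upward. Together these were 46.2%, against 45.8% of all rows and 51.7% of the brightest 25%, so the share was near the background. Cox7a2, with the lowest difference of the chain, read 12.84 and 12.54 in the controls and 12.42 and 12.28 in the MSCT group. The difference was -0.34 (SE 0.21, adjusted p 0.571 by limma), with the lower control still above both MSCT arrays. Cox6c read 13.35 and 13.27 against 13.06 and 13.09, a difference of -0.24 (SE 0.18, adjusted p 0.635 by limma) with small gaps in both groups. Cox7b read 13.07 and 13.17 against 13.01 and 12.91, and Cox8a read 13.72 and 13.91 against 13.70 and 13.65. For Cox8a, the upper MSCT array lay barely below the lower control. The assembly factors Cox15, of heme a synthesis, and Cox17, a copper chaperone, had overlapping groups and differences of -0.06 and -0.14.

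Complex V was measured through 15 genes, each with its interval inside 2-fold. The median difference was -0.06, and it was -0.18 without control replicate 1 and 0.022 without control replicate 2. In the catalytic head F1, the groups overlapped for 4 of 5 subunits. Atp5f1b, the beta subunit that makes ATP and the brightest of the complex, read 14.55 and 14.64 in the controls and 14.74 and 14.55 in the MSCT group. Atp5f1a, the alpha subunit beside it, read 14.77 and 14.48 against 14.54 and 14.60. They also overlapped for Atp5f1c and Atp5f1d of the rotating stalk, with differences of 0.11 and 0.06. Atp5f1e, the epsilon subunit of that stalk, read 12.31 and 12.25 against 12.10 and 12.07. Its difference was -0.20 (SE 0.18, adjusted p 0.693 by limma), with small gaps in both groups.

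The c ring of complex V is encoded by several genes for the same mature protein, of which Atp5mc1 and Atp5mc2 were measured. Atp5mc2, with the highest difference of the complex, read 12.45 and 12.75 in the controls and 12.82 and 12.88 in the MSCT group. The difference was 0.25 (SE 0.21, adjusted p 0.652 by limma), smaller than its control gap of 0.29, and that of Atp5mc1 was -0.09 (SE 0.33). Subunits of the stator stalk and membrane base had differences of -0.14 for Atp5po, -0.03 for Atp5pf, 0.10 for Atp5pb, 0.03 for Atp5pd and -0.11 for Atp5mg. Of these, only Atp5po had groups that did not overlap. Atp5me and Atp5mk, small subunits of the base where ATP synthase pairs up, were lower on both MSCT arrays. Atp5me read 13.24 and 13.05 against 12.92 and 12.74, and Atp5mk read 11.93 and 12.17 against 11.76 and 11.88.

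Atp5if1 encodes the inhibitor that blocks ATP synthase when it runs backward. It had the lowest difference of complex V. The controls read 12.80 and 13.09 and the MSCT arrays 12.56 and 12.70, a difference of -0.32 (SE 0.21, adjusted p 0.593 by limma). Both MSCT arrays lay below both controls, and the difference was slightly larger than the gap between the controls, 0.29.

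Genes with the different promoter motifs were set side by side as a description. All 9 genes with the ERR motif and 14 of 15 with the GABP motif had a difference below 0, with Uqcrc2 the exception. The same was so for 33 of 54 genes in the whole chain, 3083 of 6968 named genes and 9541 of 18350 rows. Every gene with ERR or GABP letters lay in the upper 50% of rows, where 33 of 49 members were below 0. The 5 weaker members, all above 0, had no window or neither motif in it, so motif and signal strength are mixed here. Atp5f1a, Atp5mg, Cox8a, Sdhd and Uqcrq carry both motifs and enter both counts. Some of the differences lay close to 0, such as -0.0037 for Cox4i1 and -0.03 for Sdhd. The median difference was -0.12 with the ERR motif and -0.03 without it, and -0.07 with the GABP motif and 0.0073 without it. For the NRF1 motif, 9 of 15 were below 0, and for YY1, 5 of 8. These counts moved with single arrays and with the scaling. Without control replicate 2, 6 of 9 genes with ERR letters and 8 of 15 with GABP letters were below 0. Without MSCT replicate 2 there were 7 and 11, and with the array medians set equal there were 8 and 11.

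The regulators of mitochondrial biogenesis were measured through 11 of 17 listed genes, with a median difference of -0.02. At an unadjusted p of 0.05 by limma, 0 were higher and 1 lower, against 4.80% and 7.17% of all rows. The 1 lower gene was Ppargc1a, which encodes the coactivator PGC-1alpha. It read 11.59 and 11.94 in the controls and 11.05 and 11.20 in the MSCT group, a difference of -0.64 (SE 0.22, adjusted p 0.396 by limma). Both MSCT arrays lay below both controls, but Ppargc1a did not pass the unadjusted threshold without control replicate 2 (-0.46), without MSCT replicate 1 (-0.56) or without MSCT replicate 2 (-0.71). Ppargc1b, its close relative, read 10.95 and 11.58 against 11.06 and 10.53, with overlapping groups. Nrf1 and Gabpa were on the list but not among the 11 genes measured. The measured genes of the factors whose motifs were searched were not past the threshold. Esrra, encoding ERR alpha, had a difference of -0.02, Gabpb1, a GABP subunit, 0.21, and Yy1 0.23. Tfam, the packaging factor of mitochondrial DNA, had a difference of -0.22, and Tfb2m, a factor of mitochondrial transcription, 0.44.

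No other list of genes around the chain held a call. Of other assembly factors, 7 of 34 listed genes were measured, with a median difference of 0.01, and 0 passed an unadjusted p of 0.05 by limma in either direction. The genes that feed electrons to ubiquinone or make it were measured through 15 of 16, with a median of 0.12 and 0 past the threshold. The carriers of ADP and phosphate and the porins of the outer membrane were measured through 6 of 7, with a median of -0.04 and 0 past the threshold. Slc25a5, the main ADP/ATP carrier of dividing tissue, read 15.13 and 15.32 in the controls and 15.21 and 15.21 in the MSCT group, and Vdac1, a porin, had a difference of -0.16. Ucp2, the only uncoupling protein measured, read 14.67 and 14.76 against 14.66 and 14.73, with overlapping groups.

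Markers of the cell types that colon tissue could hold were read beside the chain, and none passed an adjusted p of 0.05, the smallest being 0.260 by limma. Those of absorptive epithelium, 13 of 15 measured, had a summed intensity of 259139 and 265997 in the controls and 294336 and 282746 in the MSCT group, with a median difference of 0.15 and 0 past an unadjusted p of 0.05 by limma. Smooth muscle markers, 6 of 11, summed to 182219 and 148456 against 168362 and 163937, with a median of 0.03, so that both of these tissues of the colon wall gave strong signals on every array. Leukocyte markers, 5 of 10, summed to 2098 and 2033 against 3873 and 4807, and 3 passed the unadjusted threshold upward. They were Cd68 of macrophages (1.29), Lyz2 of myeloid cells (0.88) and Nkg7 of cytotoxic lymphocytes (1.72). Cd68, the brightest of the 5 by mean, gave much of the MSCT sums, at 10.00 and 10.16 in the controls and 11.22 and 11.52 in the MSCT group. The others, Cd4 (0.37) and Cd8a (0.0058), had overlapping groups. Striated muscle markers, 8 of 15, summed to 4245 and 2722 against 8566 and 6367. Past the unadjusted threshold were Acta1 upward (2.06) and Tnni1 downward (-0.73). Acta1, the brightest of the 8 by mean, gave much of the MSCT sums. It read 10.32 and 9.70 in the controls and 12.55 and 11.60 in the MSCT group. Of the 8 markers, 6 had a difference above 0 and 2 below. Markers of enteric neurons and glia, all 7, summed to 9728 and 9901 against 7491 and 7744, with Elavl4 (-1.06) and Uchl1 (-0.54) downward. Of fat markers, 2 of 6 were measured, with 0 past the threshold. Over all rows, 4.80% passed the same unadjusted threshold upward and 7.17% downward by limma. Of these 7 marker calls, only that of Cd68 held under each alternative run. Those of Acta1, Nkg7, Lyz2 and Elavl4 were lost by the plain equal-variance test, and that of Tnni1 when the variance was allowed to depend on intensity. Lyz2 also lost it without control replicate 2 (0.69) or MSCT replicate 2 (0.73). Tnni1 lost it without control replicate 1 (-0.57), MSCT replicate 1 (-0.78) or MSCT replicate 2 (-0.68). Elavl4 lost it without control replicate 1 (-0.67), MSCT replicate 1 (-1.17) or MSCT replicate 2 (-0.96). Uchl1 lost it without any 1 of the 4 arrays, with differences of -0.56 to -0.52. The part of these cell types in the values of the respiratory chain was not tested.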

How the data were processed

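RNA from the colon of 2 control and 2 MSCT samples was measured on NimbleGen arrays in one color (Cy3). A GenePix scanner and NimbleScan were used by the authors, who deposited 1 linear intensity per RefSeq transcript and array. The labels name RMA, which corrects background, equalises arrays and combines probes, but the settings used and the rule that left 8070 of 26420 rows blank are not given in the sources used here. Where RMA is applied, arrays are pulled toward a common distribution, so a shift shared by most genes would not be seen. Samples were grouped by the labels, and each value column belonged to 1 sample.

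The log2 of each intensity was used without a pseudocount, scaling or filter. With R 4.3.3, limma 3.58.1 (functions lmFit and eBayes) compared MSCT with control over all 18350 measured rows, two-sided, with Benjamini-Hochberg adjustment over all of them. Intervals are at 95%. The fit was tested on simulated data. Rows were named by RefSeq accession through the gene table of GRCr8 (7068 of 18350 rows), used for names and promoters only. The members and gene lists were chosen with earlier results of these data known, so counts and medians over a list are descriptions. The naming rule took, per complex, the highest and lowest difference and the highest mean, the isoform sets, Cycs, and genes of other lists past an unadjusted p of 0.05. It gave 24 members. One member of the set enters the counts and medians but is not reported here on its own. Atp5f1e, Ndufa10l1, Ndufv3 and Uqcrc1 were added after their values were seen because another test called them, and the other members and list genes are named outside the rule. Python 3.11.15, pandas 2.3.3 and matplotlib 3.10.9 were used for summaries and figures.

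Alternatives were arrays set to equal medians or quantile normalized, the lower 50% of rows left out, and an intensity-dependent variance together with the robust option. The others were the plain equal-variance test, the replicate number as a block, each array left out and the mean of all rows of a gene. Structural subunits only and the members in the upper 50% of rows only were also taken. RT-PCR, histology and flow cytometry were not analysed here.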

Additional observations from a re-analysis of the deposited data

How the results depend on the processing

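No member passed an adjusted p of 0.05 under any of the alternatives run across rows. Without adjustment, the count of members higher in the MSCT group went from 0 to 1 with quantile normalization (Cox6b2), to 1 with a variance that depends on intensity (Ndufv3) and to 2 by the plain equal-variance test. The count lower went from 0 to 2 by the plain equal-variance test only. In these 3 settings, 11.9%, 14.7% and 9.66% of all rows passed in either direction, so the counts in the chain were not above the background. With 1 array left out, the lone array of a group is assumed to vary like the others, so only differences are given. They ran from 0.24 to 0.75 for Ndufaf7 and from 0.33 to 1.14 for Cox6b2. The median difference over the members was lowest at -0.16 (control replicate 1 left out) and highest at 0.076 (control replicate 2 left out). Over the same fits it ran from -0.088 to 0.10 for complex I, -0.22 to 0.094 for complex II, -0.17 to 0.18 for complex III, -0.15 to -0.037 for complex IV and -0.18 to 0.022 for complex V. Among 388 values of named genes under the alternatives, 16 in 9 genes reversed in direction. Another 342 kept direction and side of the threshold, which for a member of the chain meant only that it stayed uncalled. The others kept direction but changed side of the threshold. Cox4i1 went to 0.035 and Cox6a1 to 0.022 with equal array medians, and Cox5a to -0.010 with quantile normalization. With 1 array left out, differences ran from -0.042 to 0.15 for Atp5f1b, -0.48 to 0.30 for Atp5mc1, -0.084 to 0.077 for Cox4i1, -0.15 to 0.17 for Cox5a, -0.17 to 0.031 for Cox5b, -0.050 to 0.018 for Cox6a1, -0.032 to 0.19 for Cox6a2, -0.35 to 0.13 for Cycs and -0.24 to 0.024 for Sdha. The cause was not tested. Ppargc1a did not pass an unadjusted p of 0.05 without control replicate 2 or either MSCT replicate, or by the plain equal-variance test. With the replicate block, 0 members passed in either direction, against 14.6% of all rows. The replicate numbers share only a number as far as the labels say, and the gaps between replicates of the groups correlated at 0.234 across rows. Over all rows, 0 passed an adjusted p of 0.05, against 247 with the lower 50% of rows left out and 387 with a variance that depends on intensity, with 0 members among them.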

Other observations

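Genes that build and feed mitochondria but lie outside the chain were measured too. The mitochondrial ribosome, which translates the subunits encoded in mitochondrial DNA, was measured through 24 of 78 listed genes. Their median difference was 0.19, with 18 above 0 and 6 below, against medians of -0.02 over all rows and 0.05 over all named genes. None passed the test, with 0 at an unadjusted p of 0.05 by limma, and the smallest adjusted p was 0.483. Mrpl38 read 10.64 and 11.01 in the controls and 11.62 and 11.18 in the MSCT group. Mrps18b read 10.98 and 11.19 against 11.49 and 11.50. The genes of protein import into mitochondria, 16 of 27 measured, had a median difference of 0.17, with 10 above 0, 6 below and 0 at an unadjusted p of 0.05 by limma. Tomm40, the channel of the outer membrane, read 11.25 and 11.42 against 11.70 and 12.04, and its relative Tomm40l read 11.63 and 11.60 against 11.15 and 11.26, the other way. These genes were named after their values were seen.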
